A study of Mus musculus with 4 samples.

Results

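Heat shock proteins and their cochaperones were followed across 4 mouse liver arrays through 10 named genes, of which 9 had a probe on the array. The genes were Hspa1a, Hspa1b, Hspa8, Hsph1, Hspb1, Hspb8, Dnajb1, Hsp90aa1, Hspd1 and Hspe1, and they were found by matching each probe's accession to a RefSeq gene table. This gave 14 probes for 9 genes, out of 27508 named probes for 20886 genes. No probe was matched to Hspa1b. All 14 probes were well above background on all 4 arrays by the scanner's own flag, so no member was lost to a filter on dim probes. The set was split by textbook knowledge into 7 genes that heat shock induces, 6 of them with a probe (Hspa1a, Hsph1, Hspb1, Hspb8, Dnajb1 and Hsp90aa1), and 3 that most cells express constitutively (Hspa8, Hspd1 and Hspe1).

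The RNA came from livers of male mice, either wild type or lacking catalase, which clears hydrogen peroxide in peroxisomes. Each genotype received a normal diet, with 18% of its calories from fat, or a high-fat diet, with 60.3%, for 11 weeks, from 29 to 40 weeks of age. Crossing genotype and diet gave 4 groups, each with 1 array, labelled with Cy3 alone. The labels give neither the strain nor how the Cat allele was disrupted, and they do not say whether an array holds 1 animal or a pool. No value below has a replicate.

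Heat shock proteins are chaperones, which bind unfolded or aggregating proteins and let them refold. HSP70 proteins such as those of Hspa1a and Hspa8 work in a cycle with a J-domain partner such as DNAJB1 and a nucleotide exchange factor such as HSPH1, hand clients on to HSP90, and are joined by small heat shock proteins that hold unfolded clients and by the mitochondrial chaperonin pair of HSPD1 and HSPE1. The transcription factor HSF1 raises the inducible genes when unfolded proteins build up, by binding heat shock elements, which are inverted repeats of the letters GAA and TTC. In liver these genes are known to respond to heat, oxidants, toxic compounds and the handling of the tissue.

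Because HSF1 acts through short repeats in promoters, RefSeq promoter sequence was searched for 2-unit repeats, GAANNTTC and TTCNNGAA, and for 3-unit repeats, GAANNTTCNNGAA and TTCNNGAANNTTC, where N is any base. The words were searched on the strand of the gene, and a 3-unit match contains 2-unit matches. This covers the other strand too. Each 2-unit word is its own reverse complement, and the 3-unit words are reverse complements of each other. Of all 32851 promoter windows of the same 250 bases before a start site, 12.84% held a 2-unit repeat and 0.4657% a 3-unit repeat. A window was given for 8 of the 10 members. The last 150 bases before the start site are shown, 5′ to 3′ on the strand of the gene, build GRCm38.p6, for the inducible members that were lowest in the knockout and for Hspe1. The repeat letters GAA and TTC of each match are in capitals.
Hspa1a, chr17:34972157-34972306, minus strand: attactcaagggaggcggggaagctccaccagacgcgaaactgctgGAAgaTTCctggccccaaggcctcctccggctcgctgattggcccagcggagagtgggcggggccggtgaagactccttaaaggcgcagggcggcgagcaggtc
Hsph1, chr5:149636337-149636486, minus strand: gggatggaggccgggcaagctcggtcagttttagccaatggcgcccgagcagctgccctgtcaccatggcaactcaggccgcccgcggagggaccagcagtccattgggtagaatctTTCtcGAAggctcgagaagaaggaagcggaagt
Hspb1, chr5:135887769-135887918, plus strand: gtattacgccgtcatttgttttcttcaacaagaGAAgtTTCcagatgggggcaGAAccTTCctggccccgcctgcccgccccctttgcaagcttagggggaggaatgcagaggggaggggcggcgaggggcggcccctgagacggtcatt
Dnajb1, chr8:83608025-83608174, plus strand: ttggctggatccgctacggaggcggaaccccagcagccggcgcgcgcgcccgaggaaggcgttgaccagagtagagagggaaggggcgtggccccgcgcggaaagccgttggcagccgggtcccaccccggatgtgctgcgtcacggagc
Hspe1, chr1:55087998-55088147, plus strand: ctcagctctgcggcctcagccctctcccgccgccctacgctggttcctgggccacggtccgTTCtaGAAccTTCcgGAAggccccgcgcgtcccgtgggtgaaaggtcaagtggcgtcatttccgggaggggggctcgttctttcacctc

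Hspa1a had 1 such 2-unit repeat, whose first base lay 104 bases upstream of the start site. Hspa1b, its near-identical neighbour on the same chromosome, had the same repeat at the same place, and the 250-base windows of the pair differed at 3 bases, an identity of 98.8%. Hsph1 had 1 repeat, 33 bases upstream, and Hspb1 had 2, at 117 and 97 bases. In Hspe1 a run of 3 overlapping 2-unit repeats, whose first bases lay 89, 84 and 79 bases upstream, made 2 overlapping 3-unit matches. Hspd1, which is transcribed from the same stretch in the other direction, had the same run in the window of its second start site, which shares 215 bases with that of Hspe1, and no match in the window of its first. No exact match lay in the windows of Hspb8 or of the 2 Dnajb1 start sites. Imperfect or gapped repeats, and sequence outside the 250-base windows, were not searched. A match is a description of the letters, and these arrays carry no measurement of HSF1 binding.

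Values are given as scaled log2 signals, which are the log2 of the background-subtracted processed signal minus the 75th percentile of the same array. They compare 1 probe between arrays and do not compare probes with each other. The arrays had 23757 to 25184 of 39429 probes well above background, and no spot was saturated. A gene is said to have risen or fallen only where it differed by at least 2-fold between 2 arrays, a log2 difference of 1, with its probe well above background on at least 1 of them, the other then set to a bound. The median of a list is over its genes above background on both arrays, which can be fewer than those tested. Each ± is the measurement error of a difference as the scanner software models it, about 0.20 for a bright probe, and says nothing about the spread between animals. Cat itself, the check of the labels, differed between knockout and wild type by -3.76 ± 0.20 on normal diet and -3.81 ± 0.20 on high-fat diet. Whether its probe lies in the disrupted part of the gene is not given.

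Between genotypes, the inducible HSP70 gene Hspa1a fell in the knockout on both diets, the HSP40 gene Dnajb1 fell on normal diet and the exchange factor gene Hsph1 fell on high-fat diet. By the brightest probe of each, the constitutive members Hspa8, Hspd1 and Hspe1 had log2 differences of -0.37 to -0.19 over both diets. Another Hspa8 probe gave -0.57 on each diet, and none of their probes reached 2-fold. On normal diet 2 of 9 members fell and 0 rose, where 2.5% of all 14702 genes tested fell and 1.4% rose, 3.9% in either direction. On high-fat diet 2 of 9 fell and 0 rose, where 1.59% of 14844 genes fell and 2.51% rose, 4.1% in either direction. Between diets 0 of 9 members rose or fell in wild type, where 2.31% of 14636 genes fell and 1.78% rose, 4.09% in either direction. In the knockout 0 of 9 did, where 1.64% of 14905 genes fell and 4.22% rose, 5.86% in either direction.

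**Figure D1:**
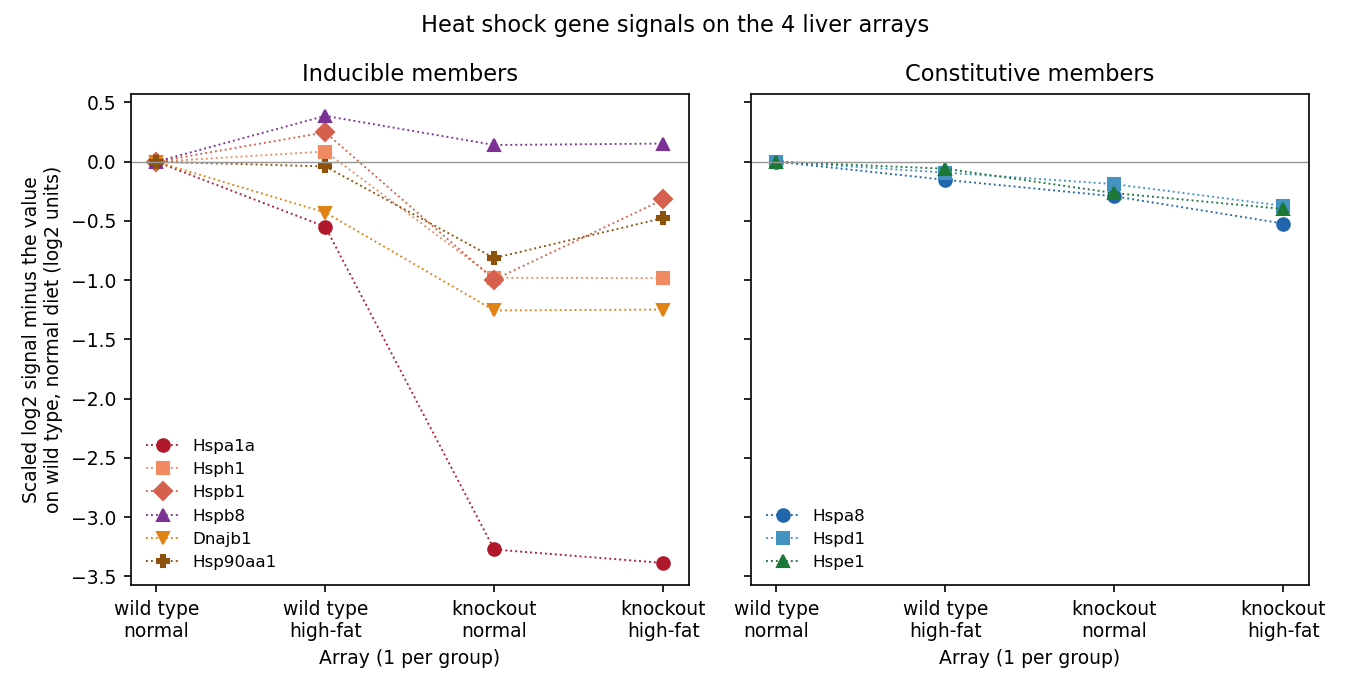
Scaled log2 signal of the 9 members on each of the 4 arrays, as the difference from wild type on normal diet, with inducible members on the left and constitutive members on the right; each point is 1 array of 1 group and dotted lines only join the points of a gene. Each gene is drawn by its brightest probe. Hspa1a lies at -3.27 on the knockout normal-diet array, and the 3 constitutive members lie below the wild-type normal-diet value by at most 0.52 (Hspa8).

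Hspa1a, which encodes the stress-inducible HSP70, was read by 1 probe. Its processed signal in wild type was 875.6 under normal and 606.5 under high-fat feeding, and in the knockout 90.29 and 95.87. These are scaled log2 signals of -0.20, -0.75, -3.47 and -3.59 in that order. Both wild-type arrays were above both knockout arrays, and the share of all genes split in this way was not counted. Hspa1a differed between genotypes by -3.27 ± 0.23 on normal diet, a fall of 9.67-fold, and by -2.84 ± 0.22 on high-fat diet, a fall of 7.15-fold. With normexp background correction, which added an offset of 50 to each signal, the falls were 5.65-fold and 4.40-fold. Under the other alternatives they were 8.77-fold to 9.67-fold and 7.15-fold to 7.44-fold. It was the only member at least 2-fold lower on both diets, which 0.236% of 13550 genes above background on all 4 arrays were. By the mean of the 2 genotype differences it stood at place 3 from the lowest of these genes, and Cat stood at place 1. Diet differences were smaller, -0.55 ± 0.20 in wild type and -0.11 ± 0.24 in the knockout. Hspa1b is a near-identical copy, and whether the Hspa1a probe also reads its transcript cannot be settled without the probe's sequence, so the signal may belong to both genes.

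Both HSP70 cochaperones among the members had their higher values in wild type. Dnajb1, whose J-domain protein delivers clients to HSP70 and triggers its ATP hydrolysis, had scaled log2 signals of 4.48 and 4.05 in wild type on normal and high-fat diet and 3.22 and 3.23 in the knockout. Here too both wild-type arrays were above both knockout arrays, a split not counted over all genes. Dnajb1 fell by 1.26 on normal diet, a difference of -1.26 ± 0.20 or 2.39-fold, and differed by -0.82 ± 0.20, or 1.76-fold, on high-fat diet. High-fat diet differed from normal diet by -0.43 ± 0.20 in wild type and 0.01 ± 0.20 in the knockout.

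Hsph1 encodes HSP110, a nucleotide exchange factor for HSP70. Its brighter probe read 3.81 and 3.89 in wild type on normal and high-fat diet and 2.83 and 2.82 in the knockout. The 2 diets were close in each genotype. The genotype difference was -0.98 ± 0.20 on normal diet, which at 1.97-fold missed the 2-fold rule, and Hsph1 fell by 1.07, or 2.10-fold, on high-fat diet, a difference of -1.07 ± 0.20. Its other probe gave -0.98 and -1.07 in the same order. The call on high-fat diet sat close to the threshold and was lost under quantile normalization, at -0.99, under cyclic loess, at -0.96, and under normexp background correction, at -0.99.

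Hsp90aa1 encodes the inducible cytosolic HSP90. It read 4.63 and 4.59 in wild type on normal and high-fat diet and 3.82 and 4.15 in the knockout. The knockout arrays were the lower ones, with differences of -0.81 ± 0.20 (1.76-fold) on normal diet and -0.44 ± 0.20 (1.35-fold) on high-fat diet, both short of 2-fold. Within the knockout the high-fat array was 0.34 ± 0.20 above the normal-diet array, and within wild type the difference was -0.04 ± 0.20.

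The 2 small heat shock proteins, which hold unfolded clients without using ATP, differed from each other. Hspb1, the gene of HSP27 (also called HSP25 in the mouse), read 5.53 and 5.78 in wild type on normal and high-fat diet and 4.54 and 5.22 in the knockout. On normal diet it was 1.99-fold lower in the knockout, just under the rule, and on high-fat diet the difference was -0.57 ± 0.20. With normexp background correction the first became a log2 difference of -1.04 and passed 2-fold. The high-fat array of the knockout was 0.68 ± 0.20 above its normal-diet array, the highest diet difference of any member, and in wild type the value was 0.25 ± 0.20.

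Hspb8, which works with the HSP70 cochaperone BAG3 in the disposal of misfolded proteins, had signals of 4.05 and 4.43 in wild type and 4.19 and 4.20 in the knockout on normal and high-fat diet. It was the member with no common direction between genotypes: the differences were 0.14 ± 0.20 on normal diet and -0.23 ± 0.20 on high-fat diet. The wild-type arrays were the lowest and the highest of the 4, with 0.39 ± 0.20 between them.

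Among the constitutive members, Hspa8 encodes HSC70, the HSP70 of unstressed cells. Its brightest probe read 7.86 and 7.71 in wild type and 7.57 and 7.34 in the knockout on normal and high-fat diet. Genotype differences were -0.29 ± 0.20 and -0.37 ± 0.20 on the 2 diets. The other 2 Hspa8 probes gave -0.57 and -0.57, and -0.47 and -0.44, so the 3 probes shared a direction, and all stayed under 2-fold.

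Hspd1 encodes HSP60, the mitochondrial chaperonin, and Hspe1 its lid HSP10. Hspd1 read 6.14 and 6.04 in wild type and 5.95 and 5.76 in the knockout on normal and high-fat diet, with genotype differences of -0.19 ± 0.20 and -0.28 ± 0.20. The brightest of 3 Hspe1 probes read 5.13 and 5.07 in wild type and 4.86 and 4.73 in the knockout, with differences of -0.27 ± 0.20 and -0.34 ± 0.20. The other Hspe1 probes lay between -0.39 and -0.23. For all 3 constitutive genes wild type on normal diet was the highest array and the knockout on high-fat diet the lowest, with diet differences of -0.23 to -0.06. These are near the scanner error, and in the knockout all 3 changed sign under quantile normalization and cyclic loess, as those of Hspd1 and Hspe1 in wild type did under these and median scaling.

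**Figure D2:**
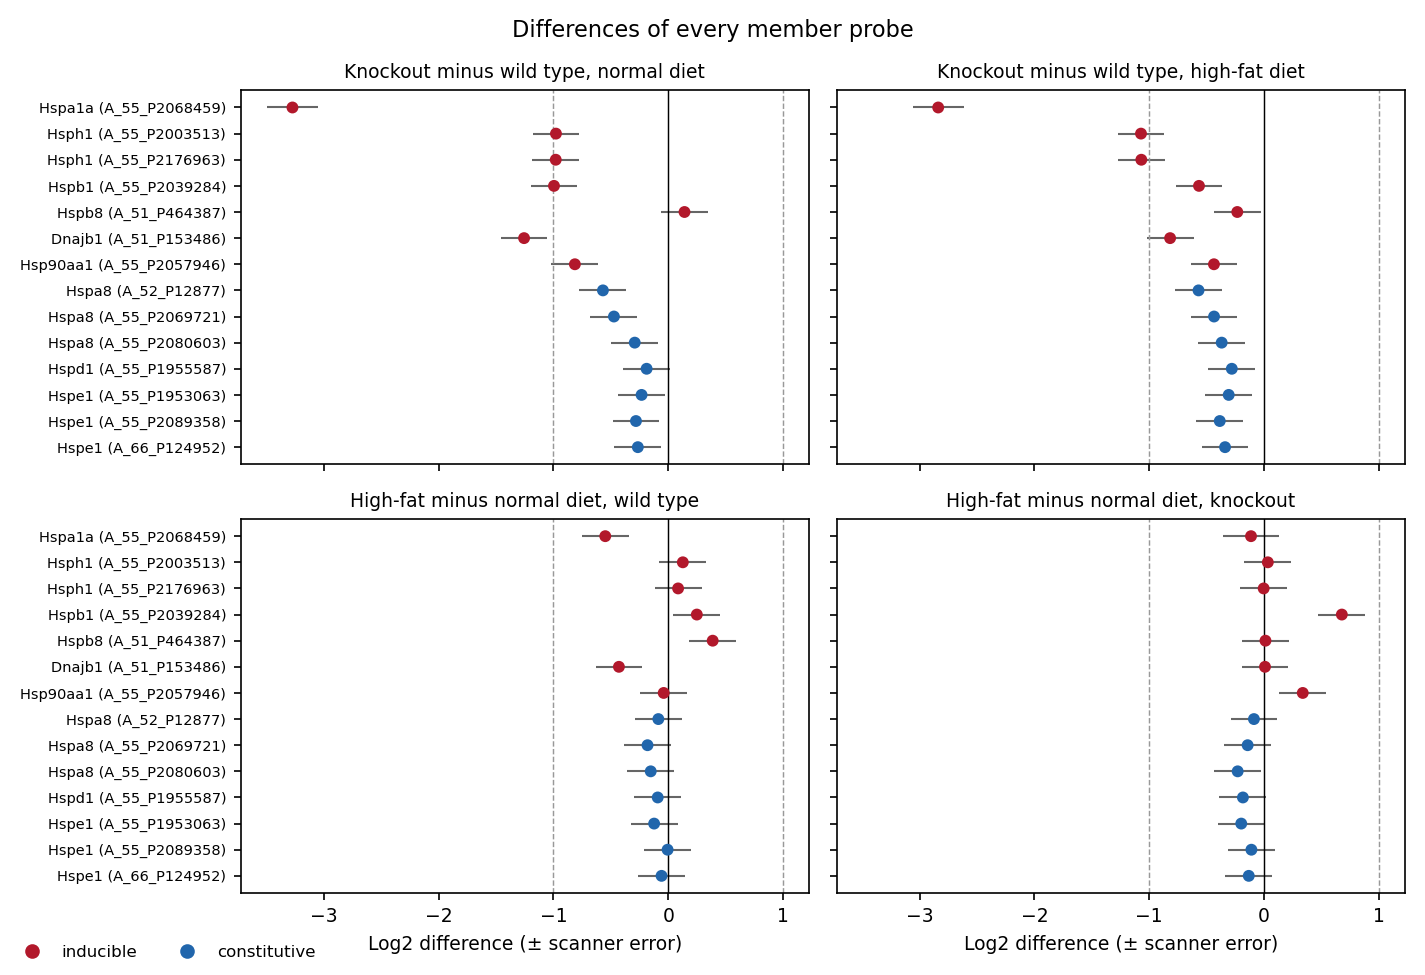
Log2 difference of each of the 14 member probes in the 4 comparisons of 2 arrays, with bars for the scanner error of the difference, inducible members in red and constitutive members in blue; dashed lines mark 2-fold. Both Hsph1 probes lie near -1 between genotypes, the 3 Hspa8 probes between -0.57 and -0.29, and every diet difference lies inside the dashed lines.

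As groups, the 6 inducible members had a median genotype difference of -0.99 on normal diet, from -3.27 to 0.14, and -0.69 on high-fat diet, from -2.84 to -0.23. The 3 constitutive members had medians of -0.27 and -0.34. Over all genes above background on both arrays the medians were -0.01 and -0.04. The inducible minus the constitutive median was -0.72 on normal diet and -0.35 on high-fat diet, with no test, since 1 array stood for each group. In the constitutive group, Hspd1 and Hspe1 held the only 3-unit matches among the 8 members with a promoter window, in a stretch that their windows share. The part of heat shock repeats in these differences was not tested. Between diets the inducible medians were 0.02 in wild type and 0.01 in the knockout, and the constitutive medians -0.09 and -0.18, against -0.02 and -0.07 over all genes. Of the 9 members 8 were lower in the knockout on both diets, a direction that 32.1% of 13550 genes shared. By more than the scanner error of each difference, 7 of 9 were lower on both diets, where 6.8% of genes were. This count was 5 under median scaling and cyclic loess, where 4.72% and 5.63% of genes were, and 6 under quantile normalization, where 5.68% were; Hspa8 dropped out under all 3 and Hspe1 under the first 2. The 2 genotype comparisons share no array, but each rests on 1 array per group, and all 4 arrays lay on 1 slide. The members were read from the same arrays, so their counts are not independent readings.

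The difference between the diet effects of the genotypes was within 0.44 for all 9 members. It ranged from -0.37 ± 0.29 for Hspb8 to 0.44 ± 0.29 for Dnajb1. Hspa1a had 0.43 ± 0.32 and Hspb1 0.43 ± 0.29. None reached a log2 difference of 1, which 5.0% of 13550 genes did. With 4 arrays this difference has no test.

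A limma fit of genotype plus diet used all 4 arrays and 14346 genes. It has 1 residual degree of freedom, which treats the interaction of genotype and diet as error. With Benjamini-Hochberg adjustment 0 genes passed 0.05 for genotype, and 1041 genes, or 7.26%, had an unadjusted p under 0.05. For diet 0 genes passed and 1425, or 9.93%, had an unadjusted p under 0.05. The genotype coefficient of Hspa1a was -3.06 with a standard error of 0.17, an unadjusted limma p of 0.000255 and an adjusted p of 0.366. Over 6 other settings that adjusted p lay between 0.350 and 0.855, and under median scaling it was 2.63e-18 with infinite prior degrees of freedom, so that all genes shared 1 variance. For Hsph1 the coefficient was -1.03 (adjusted p 0.625) and for Dnajb1 -1.04 (adjusted p 0.644) in limma. Of the 9 members 5 had an unadjusted p under 0.05 for genotype, namely these 3, Hspb1 and Hsp90aa1, and 0 of 9 had one for diet.

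**Figure D3:**
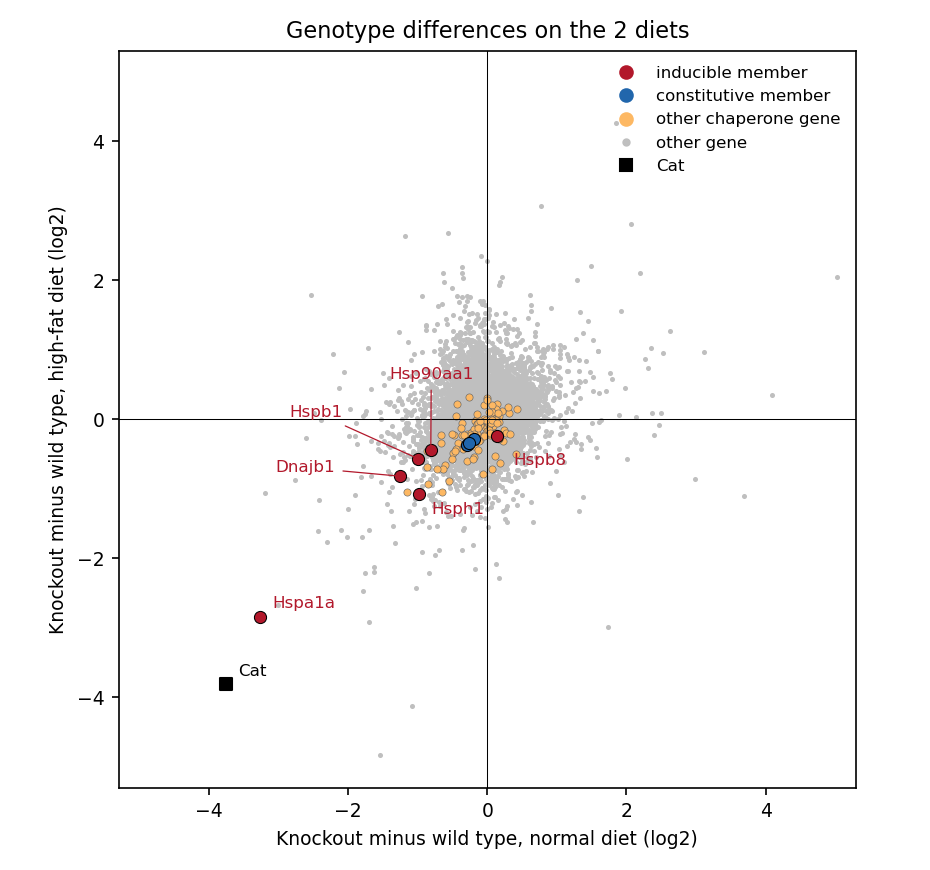
Log2 difference of knockout minus wild type on normal diet (x axis) against that on high-fat diet (y axis) for named genes whose lowest scaled log2 signal is above -5, with inducible members in red, constitutive members in blue, other chaperone genes in orange and Cat as a black square. Hspa1a lies at -3.27 and -2.84 near Cat, Dnajb1, Hsph1, Hspb1 and Hsp90aa1 lie between -0.44 and -1.26 on both axes, and Hspb8 and the constitutive members lie near the origin.

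The genes whose pattern over the 4 arrays was nearest to that of Hspa1a, by Euclidean distance of centred scaled log2 signals among 13549 other genes, were Jmjd7, at a distance of 0.36, Cat at 0.79, Olfr331 at 1.08, Tmem254a at 1.08 and Egr1 at 1.11. Jmjd7 differed between genotypes by -3.01 on normal diet and -2.67 on high-fat diet. Nearest to Dnajb1 were Ces4a, at 0.07, Slc5a3 at 0.16, Ino80 at 0.18, 9430037G07Rik at 0.19 and Fut11 at 0.21. With 4 arrays such nearness is a description of the values.

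The other chaperone genes of 8 lists, 127 with a probe, were read in the same way. Between genotypes on normal diet 0 of 118 tested rose and 2 fell, Dnaja4, another J-domain gene, by 1.01, and Creld2, an endoplasmic reticulum chaperone gene, by 1.16. Calls made up 1.695% of those tested, where 3.9% of all genes tested rose or fell. The median of the 116 above background on both arrays was -0.12. On high-fat diet 2 of 117 fell, Hspa5, the HSP70 of the endoplasmic reticulum, by 1.05, and Creld2 by 1.05. The testis-rich HSP70 gene Hspa1l rose, to at least 5.64-fold above the wild-type array, where it was not well above background, and the median was -0.19. Calls on this diet made up 2.564% of those tested, where 4.1% of all genes tested rose or fell. Between diets Fkbp5, an HSP90 cochaperone gene induced by glucocorticoids, rose by 1.24 in wild type, and Hspa1l was at least 7.01-fold higher with high-fat feeding in the knockout. Both Hspa1l values rest on the same high-fat knockout array. Diet calls made up 0.8475% of those tested in wild type and 0.8547% in the knockout, where 4.09% and 5.86% of all genes tested were called.

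By family, the median genotype differences on normal and high-fat diet were -0.01 and -0.15 for other HSP70 and exchange factor genes, -0.02 and -0.14 for other HSP40 genes, -0.13 and -0.26 for other HSP90 genes and cochaperones, and -0.28 and -0.23 for other small heat shock genes. The cytosolic chaperonin and prefoldin list had -0.14 and -0.19, and mitochondrial chaperones and proteases 0.01 and -0.08. In these lists 0 genes other than those named above rose or fell between genotypes. Endoplasmic reticulum chaperones had the lowest medians of the 8 lists, -0.43 and -0.41, with 15 of 16 genes lower on each diet. Over all genes 7158 of 13779 were lower on normal diet and 7874 of 13828 on high-fat diet. A list of HSF1, its relatives and known HSF1 targets, which overlaps the others, had -0.32 and -0.24, with 15 of 18 and 16 of 18 genes lower and 0 past 2-fold. In it the largest differences were in Serpinh1, a collagen chaperone gene, at -0.67 ± 0.20 on normal diet, and Bag3, an HSP70 exchange factor gene, at -0.71 ± 0.20 on high-fat diet. The factor gene Hsf1 itself, named here after its values were seen, differed by 0.05 ± 0.20 on normal diet and by 0.01 ± 0.20 on high-fat diet. Its relatives Hsf2 and Hsf4, named in the same way, differed by -0.15 and 0.42 on normal diet. On high-fat diet they differed by -0.07 and 0.15. These transcript levels are not a measurement of HSF1 activity.

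**Figure D4:**
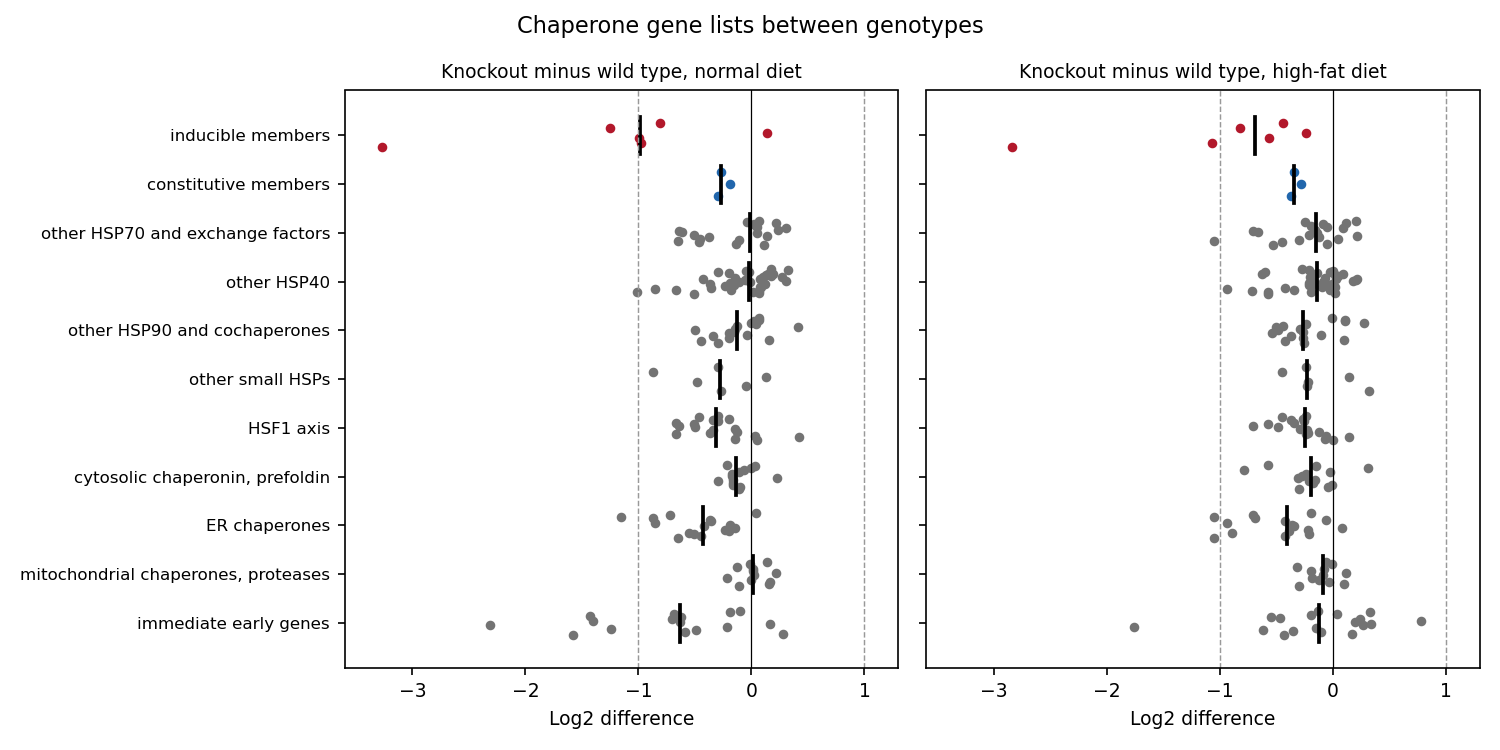
Log2 difference of knockout minus wild type for each gene above background on both arrays, by list, on normal diet (left) and high-fat diet (right), with the list median as a black bar and 2-fold as dashed lines. The inducible members (red) have medians of -0.99 and -0.69, the constitutive members (blue) -0.27 and -0.34, and the other chaperone lists between -0.43 and 0.01; Hspa1l, below background in wild type on high-fat diet, is not drawn.

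Immediate early genes, which tissue handling and many signals induce within minutes and which share the low knockout values on normal diet, were measured beside the members. On normal diet 5 of 18 tested fell in the knockout, where 2.5% of all genes tested fell. The median of the 16 above background on both arrays was -0.63. Egr1 differed by -2.31, Fos by -1.58, Btg2 by -1.43 and Atf3 by -1.40, and 0 rose. On high-fat diet 1 of 18 fell, Egr1 by 1.76, where 1.59% of all genes tested fell. The median was -0.12, and that of the 6 inducible members was -0.69. Between diets 4 of 18 fell in wild type and 4 of 18 rose in the knockout, where 0 members did either. Over all genes tested 2.31% fell in wild type and 4.22% rose in the knockout. The part of these genes in the member differences was not tested.

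Cell type markers moved with the groups as well. The 12 hepatocyte markers were well above background on all arrays, with summed scaled signals, on the linear scale where 1 is the 75th percentile, of 3432, 3238, 3158 and 2638 for wild type and then knockout, each on normal and then high-fat diet, and median genotype differences of -0.11 and -0.30. On normal diet 11 of 12 were lower in the knockout and 0 fell, and on high-fat diet 12 of 12 were lower and 2 fell, Tat by 1.07 and Cps1 by 1.01. Macrophage markers, 11 of 12 with a probe and 10 or 11 above background, summed to 43.89, 52.95, 36.89 and 95.49 in that order. On high-fat diet 6 of 11 rose in the knockout, with a median of 1.08, and on normal diet 1 of 10 fell, with a median of -0.18. Stellate cell and fibroblast markers summed to 56.32, 62.67, 48.84 and 74.59. On high-fat diet 3 of 10 of them rose and all 10 were higher, with a median of 0.85, and on normal diet 0 rose or fell, with a median of -0.20. Neutrophil markers, 6 of 7 with a probe, summed to 3.52, 3.77, 3.24 and 6.57. On high-fat diet 3 of 6 rose, and the 4 above background on both arrays had a median of 0.92. On normal diet 2 of 6 rose and 1 fell. The 4 above background on both of those arrays had a median of -0.88. Bile duct markers summed to 1.12, 0.729, 0.608 and 1.796. Of these 2 of 4 rose on high-fat diet, with a median of 0.80, and 0 of 5 rose or fell on normal diet, with a median of -0.94. Over the endothelial, lymphocyte, pancreas, fat cell and red cell lists at most 1 gene of each rose or fell between genotypes on either diet. Some of these lists were short. On high-fat diet 1 of 2 red cell markers tested fell, with a median of -0.90. There 1 of 4 pancreas markers rose, with a median of 0.79, and 1 of 8 lymphocyte markers fell, with a median of -0.28. On normal diet 1 of 9 lymphocyte markers fell, with a median of -0.22. Skeletal muscle markers, where small heat shock proteins are abundant, had 1 or 2 of 7 above background and sums of 0.09906 to 0.145. Among all genes above background on both arrays, 7158 of 13779 were lower in the knockout on normal diet. On high-fat diet 7874 of 13828 were lower and 5954 were higher. Of all genes tested 2.5% fell and 1.4% rose on normal diet, and 1.59% fell and 2.51% rose on high-fat diet. Median scaling shifted every normal-diet genotype difference by 0.14. In bulk liver, fewer cells of a type and less RNA per cell cannot be told apart. The part of these markers in the member differences was not tested.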

How the data were processed

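The deposited scanner files, per the file headers, are Feature Extraction 11.5.1.1 output and give background-subtracted spot intensity with an error and a well-above-background flag. Per the submitters' processing notes, the authors used GeneSpring GX 7.3. How they compared groups is not given in the sources used here. A table of values, also deposited, holds linear intensity, within 1% of the scanner signal for 99.68% to 99.74% of probes, with column medians of 79.87, 75.87, 72.38 and 89.16 for wild type and then knockout, each on normal and then high-fat diet, and no centring. That match is what gives its scale, and 1-colour values have no direction.

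Control spots and outlier spots (98 to 186 per array) were left out, log2 spots were averaged per probe, and each array's 75th percentile (1006, 1019, 1002 and 1152 in the same order) was subtracted. Accessions were matched to RefSeq genes of GRCm38.p6, used for names and promoter windows only, and 11921 of 39429 probes stayed unnamed. A gene's brightest probe represented it. A gene was called at 2-fold where above background on both arrays, or where a bound reached 2-fold with 1 array at the higher of its own and the lowest signal above background. There is no replicate check, so comparisons of 2 arrays carry no p-value. All 4 arrays lay on 1 slide.

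Members, lists and the naming rule (all members, Cat, up to 4 called genes per list and comparison or else the largest difference, and the 5 genes nearest to Hspa1a and Dnajb1) were chosen with earlier results of these data known. The size rule and limma (3.58.1, R 4.3.3, genes above background on at least 2 arrays) were tried on simulated data. There all genes had the same noise level and no interaction of genotype and diet was built in. That trial therefore does not show how they behave on these arrays. Python 3.11.15, numpy 2.4.6, pandas 2.3.3 and matplotlib 3.10.9 did the rest. Alternatives were other scalings, normalizations, background corrections and filters, the value table, and the mean of all probes.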

Additional observations from a re-analysis of the deposited data

Results flagged for a closer look

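Among the members and the lists measured beside them, 1 gene moved in opposite directions between genotypes on the 2 diets. Marco, a scavenger receptor gene of macrophages, fell in the knockout by 1.18 on normal diet (-1.18 ± 0.20) and rose by 2.63 ± 0.20 on high-fat diet. With 1 array per group the difference was not tested. No member did this at 2-fold.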

How the results depend on the processing

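Hspa1a was called between genotypes under all 8 alternatives, from -3.27 to -2.50 on normal diet and from -2.90 to -2.14 on high-fat diet, and Dnajb1 on normal diet under all 8. Every member kept the sign of its genotype differences. On high-fat diet 1 member, Hspa1a, was called under quantile normalization, cyclic loess and normexp, against 2 in the main setting. Small diet differences changed sign under some settings: in the knockout Hspa8 reached 0.05, Hspd1 0.05 and Hspe1 0.09. The value of Hspb1 there was at most 0.90, under 2-fold. Of 288 member values under an alternative, 3 lost and 1 gained a call, and 21 changed sign, all of them diet differences. Median scaling shifted all genes by 0.09 and -0.11 between diets in wild type and knockout and by 0.14 and -0.06 between genotypes on normal and high-fat diet. It left 264 higher and 285 lower genes between genotypes on normal diet, against 206 and 368, and 510 and 323 between diets in the knockout, against 629 and 245.

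Under median scaling limma called 219 genes for genotype, Hspa1a among them, and 377 for diet, where its estimated prior degrees of freedom were infinite and all genes shared 1 variance; the 6 other alternatives run for limma, which leave out the value table, called 0. Over all genes, normexp on the median signal gave 273, 409, 245 and 263 calls (diet in wild type, diet in knockout, genotype on normal diet, genotype on high-fat diet) and 326 differences of diet effects. Requiring all 4 arrays above background left 324, 288 and 353 (diet in wild type, then genotype on the 2 diets), since fewer genes were tested. With no filter 1551, 1795, 1611 and 1396 were called, and 2543 differences of diet effects. The normexp correction added an offset of 50 to each signal, and the part of this offset in the normexp counts was not tested. The normexp on mean signal planned first was not run, since the scanner files used here hold the median signal, and its replacement was chosen after seeing the data. No paired analysis was possible because each group has 1 array and no replicate number, and for the same reason no replicate could be left out.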

Other observations

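Genes above background on all 4 arrays were also described by the heat shock repeats in their promoter windows. The 50 genes with a 3-unit repeat had median genotype differences of -0.05 on normal diet and -0.13 on high-fat diet, and 0 and 1 of them fell. The 1288 genes with a 2-unit repeat alone had -0.01 and -0.04, and 17 and 11 fell. The 9458 genes with neither had -0.01 and -0.04, and 125 and 93 fell. These are descriptions with no test.

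In the knockout the immediate early genes Atf3, by 2.26, and Klf6, by 1.08, rose on high-fat diet, and Egr2 and Ier3, below background on normal diet, were higher by at least 3.93-fold and at least 2.47-fold in turn. In wild type Junb fell by 1.34, Ier2 by 1.07, Egr1 by 1.03 and Nr4a1 by 1.01.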
